A study of Mus musculus with 8 samples.

Results

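Tagln, Myh11 and Actg2 are genes of the smooth muscle contractile apparatus, measured here in mouse spermatids. They were taken by gene symbol from the deposited expression table and make up 3 of its 16349 genes. All 3 passed the filter on low values used for testing. Actg2 was an abundant transcript of these cells and rose strongly from the round to the elongating stage, whereas Myh11 and Tagln were low. All 3 were higher in Carm1 KO-labelled than in wild-type (WT) elongating spermatids. In round spermatids Actg2 and Myh11 were higher and Tagln lower in the KO-labelled libraries. The round differences of Myh11 and Tagln rested on few reads, and whether they passed the test depended on single libraries. Tagln reads could not be assigned to a strand.

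Smooth muscle contracts when myosin filaments pull on actin filaments, after calcium has switched on the kinase that phosphorylates the myosin light chain. Myh11 encodes the smooth muscle myosin heavy chain, Actg2 the smooth muscle gamma-actin typical of gut and bladder muscle, and Tagln encodes transgelin (SM22-alpha), a small actin-binding protein of the calponin family. In the testis, contractile cells lie around the seminiferous tubules (peritubular myoid cells) and in vessel walls. Actg2 is also known as an actin mRNA of mouse male germ cells after meiosis.

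The series compared round spermatids, the early haploid germ cells, with elongating spermatids, the later stage of nuclear condensation and tail growth. Each stage had 2 libraries with the genotype given as WT and 2 with the genotype given as cKO, a conditional knockout of Carm1, which encodes an arginine methyltransferase and transcriptional coactivator. All mice were C57BL/6, each sample pooled the cells of 8 testes separated by centrifugal elutriation, and the poly A libraries came from a kit that does not mark strand. The sources used here do not give the Cre driver, the deleted exons or the age of the mice. The labels do not say whether both libraries of a group came from separate mice, so p-values measure the spread between libraries, and this may be technical only.

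The deposited values are read counts divided by a size factor per library, here called normalised read counts. Dividing out the steps returned whole reads for 100% of the values, 17190962 to 23526694 reads per library. The size factors were 1.57 to 1.77 in round and 0.516 to 0.776 in elongating libraries, so scaling by total reads lowers every elongating value relative to every round one. With total-read scaling, the median gene fell by 1.43 on the log2 scale from round to elongating WT cells and by 0.62 from WT to KO-labelled elongating cells. With the deposited values the same medians were 0.01 and -0.07. Carm1 itself stood at 1668 ± 26.2 normalised counts (SD, n = 2) in WT and 1259 ± 119 in KO-labelled round libraries, and at 4421 ± 159 in WT and 8075 ± 116 in KO-labelled elongating libraries. It was lower in the KO-labelled round libraries (log2 -0.41, adjusted p = 3.8e-05, limma) and higher in the KO-labelled elongating ones (0.87, adjusted p = 2.7e-09). As a share of reads it was 0.0143% and 0.0149% in the WT and 0.0180% in each of the KO-labelled elongating libraries. The deleted exons are not given, so counts over the whole gene do not test the label. All 8 elongating-spermatid markers were higher, and all 6 round-spermatid markers lower, in elongating than in round libraries of both genotypes. Of all genes tested, 41.7% rose and 40.2% fell between these stages in WT, and 42.6% and 41.8% in KO-labelled cells.

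Actins are close relatives, so the start of the coding sequence shows how far reads of Actg2 can be told from those of other actins. The first 60 coding bases of Actg2 are printed 5′ to 3′ above those of Acta2 (the vascular smooth muscle actin), Actg1 and Actb (the cytoplasmic actins), from GENCODE transcripts on GRCm38, all on the minus strand. Capitals mark bases that differ from Actg2, or have no partner in it, when the whole coding sequences are aligned.
Actg2: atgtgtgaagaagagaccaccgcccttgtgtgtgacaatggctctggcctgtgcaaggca
Acta2: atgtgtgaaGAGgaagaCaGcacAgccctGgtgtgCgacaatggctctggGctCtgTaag
Actg1: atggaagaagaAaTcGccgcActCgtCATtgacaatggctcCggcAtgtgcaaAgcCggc
Actb: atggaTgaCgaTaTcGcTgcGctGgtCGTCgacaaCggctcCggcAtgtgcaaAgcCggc
The stretches lie at chr6:83527382-83527441 (Actg2), chr19:34252494-34252553 (Acta2), chr11:120348032-120348091 (Actg1) and chr5:142905627-142905686 (Actb), each within 1 exon. They hold 11 marked bases in Acta2, 12 in Actg1 and 17 in Actb. Over the whole coding sequence Actg2 was identical to Acta2 at 84.2% of aligned positions, to Actg1 at 82.6% and to Actb at 82.8%. None of the 1284 stretches of 50 bases in the Actg2 transcript occurred in a transcript of another gene.

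Actg2 (ENSMUSG00000059430.14) lies on chromosome 6 at 83512905 to 83536265, minus strand, of GRCm38, and its transcript has 9 exons. In round cells its normalised counts were 2417 and 2473 (WT) and 2968 and 3144 (KO-labelled). In elongating cells they were 18798 and 19413 (WT) and 34188 and 32912 (KO-labelled). No group overlapped another, and the order ran from round WT over round KO-labelled and elongating WT to elongating KO-labelled libraries. Groups of 2 did not overlap for 70.9% of all genes tested between genotypes in round cells, for 74.7% in elongating cells, and for 91.7% and 91.5% between stages in WT and KO-labelled cells. The counts rested on 3799 to 17628 reads per library.

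From round to elongating WT cells Actg2 rose 7.81-fold (log2 difference 2.97, SE 0.04, adjusted p = 1.2e-18), and in KO-labelled cells 11.0-fold (3.46, SE 0.04, adjusted p = 1.3e-19). These and all later log2 differences are on the scale log2(normalised count + 1), with the p-value from limma adjusted by Benjamini-Hochberg over the 15685 genes tested and called under 0.05. The stage contrast called 81.9% of all genes tested in WT (41.7% upward, 40.2% downward) and 84.3% in KO-labelled cells, so a call alone places Actg2 among most genes. In size, 1457 genes had a larger stage difference in WT. As RPKM (recovered reads per kilobase of exon, scaled to the library total, with no size factor), the level of Actg2 was 143 ± 1.89 in WT and 168 ± 6.57 in KO-labelled round cells, and 405 ± 7.01 in WT and 481 ± 6.34 in KO-labelled elongating cells (SD, n = 2). Among 15698 genes with an exon length, it ranked 445 and 453 in the round WT libraries and 180 and 182 in the elongating WT libraries.

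Between genotypes, Actg2 was 1.25-fold higher in KO-labelled round cells (log2 0.32, SE 0.04, adjusted p = 8.6e-06) and 1.76-fold higher in KO-labelled elongating cells (0.81, SE 0.04, adjusted p = 8.2e-11). The round contrast called 32.0% of all genes tested, 19.4% upward and 12.6% downward, and the elongating contrast called 55.0%, 27.3% upward and 27.7% downward. In elongating cells 1566 genes had a larger increase than Actg2. Scaled by total reads, the increase in elongating cells was 0.25 and that in round cells 0.23, both still called. The markers of the stage itself moved with this result. The summed normalised counts of the 8 elongating-spermatid markers were 3012125 to 3024269 in WT and 5152983 to 5305233 in KO-labelled elongating libraries, and all 8 rose, with a median log2 difference of 0.83. With total-read scaling 6 of them rose and 1 fell, with a median of 0.27. The 6 round-spermatid markers summed to 4875 to 4942 in WT and 2792 to 2849 in KO-labelled elongating libraries, and 5 of them fell. Their part in the Actg2 difference was not tested. The difference between the Actg2 increases of the 2 stages was 0.49 (SE 0.05, adjusted p = 2.3e-06) with the deposited values, and 0.02 (adjusted p = 0.79) under scaling by total reads.

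**Figure D1:**
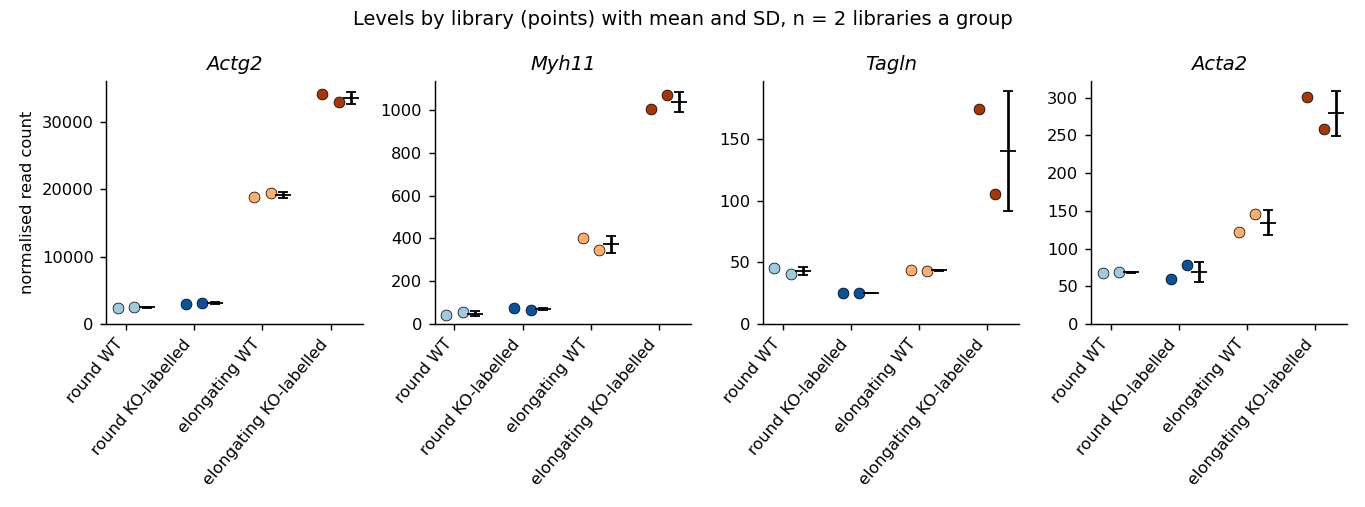
Normalised read counts of Actg2, Myh11, Tagln and, for comparison, Acta2 in each of the 8 libraries (points), with the mean and SD of each group of 2. Actg2 ranges from 2417 to 34188, while no Tagln value exceeds 174.5, and in each panel the highest group is the elongating KO-labelled one.

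Myh11 (ENSMUSG00000018830.10) lies on chromosome 16 at 14194535 to 14291372, minus strand, with no overlapping gene, and its transcript has 42 exons. Its normalised counts in round libraries were 40.7 and 56.3 (WT) and 74.4 and 67.0 (KO-labelled). Those in elongating libraries were 399.6 and 344.6 (WT) and 1003 and 1069 (KO-labelled). The 4 groups kept the order of Actg2 and did not overlap. The round values rested on 64 to 119 reads per library and the elongating ones on 239 to 567, so the round contrast is the less precise. Of the 6401 stretches of 50 bases in the transcript, 26 were shared with another gene, all of them with Myh9, a nonmuscle myosin heavy chain, and 16 also with Myh10.

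Myh11 rose from round to elongating cells 7.61-fold in WT (log2 2.93, SE 0.14, adjusted p = 2.3e-11) and 14.5-fold in KO-labelled cells (3.85, SE 0.14, adjusted p = 5.6e-13). It was 2.78-fold higher in KO-labelled elongating cells (1.48, SE 0.14, adjusted p = 3.2e-07), an increase larger than that of all but 441 genes tested. In round cells it was 1.47-fold higher (0.55, SE 0.14, adjusted p = 0.0068). That call was lost without round WT replicate 1 (0.32, adjusted p = 0.11) and without round KO-labelled replicate 1 (0.48, adjusted p = 0.064). The increase was larger in elongating than in round cells by 0.93 (SE 0.20, adjusted p = 0.0016), and by 0.45 (adjusted p = 0.072) under scaling by total reads, where the elongating increase itself was 0.91 and still called. Per length, Myh11 stood at an RPKM of 0.582 ± 0.131 in WT and 0.798 ± 0.0599 in KO-labelled round cells, and of 1.62 ± 0.178 in WT and 3.04 ± 0.179 in KO-labelled elongating cells (SD, n = 2).

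Tagln (ENSMUSG00000032085.5) lies on chromosome 9 at 45929619 to 45936058, minus strand, and its transcript has 5 exons. Round libraries had normalised counts of 45.2 and 40.6 (WT) and of 24.8 in each KO-labelled library. Elongating libraries had 43.8 and 43.3 (WT) and 174.5 and 105.6 (KO-labelled). The round KO-labelled libraries were lowest, the WT libraries of both stages overlapped, and the elongating KO-labelled libraries were highest and farthest apart. The values rested on 30 to 90 reads per library.

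What the Tagln reads count is uncertain, because the libraries carry no strand. The antisense gene Gm48529 (45930112 to 45933738) covers 1241 exon bases, 62.4% of the Tagln exon bases, and was not analysed here. Pcsk7, a proprotein convertase gene on the plus strand (45906497 to 45929726), shares 108 exon bases, 5.43%, at the 3′ end of Tagln. Of 1546 stretches of 50 bases in the Tagln transcript, 747 (48.3%) occurred in another gene's transcript. Pcsk7 fell in KO-labelled round cells (log2 -0.55, adjusted p = 4e-04) and in KO-labelled elongating cells (-0.33, adjusted p = 0.0087, limma).

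Read with that limit, Tagln was 3.07-fold higher in KO-labelled elongating cells (log2 1.62, SE 0.23, adjusted p = 2.9e-05), and 342 genes had a larger increase. In KO-labelled round cells it was lower, 0.589 of the WT level (-0.76, SE 0.23, adjusted p = 0.02, limma). Leaving out any 1 of the 4 round libraries kept that direction but lost the call: the adjusted p was 0.13 without WT replicate 1, 0.064 without WT replicate 2, 0.083 without KO-labelled replicate 1 and 0.086 without KO-labelled replicate 2. The 2 contrasts differed by 2.38 (SE 0.33, adjusted p = 3.7e-05), and 43 of the genes tested had a larger difference. This test called 36.9% of all genes tested, 19.3% in the direction of Tagln. Scaling by total reads gave an elongating increase of 1.06, still called.

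Between stages, Tagln differed from Actg2 and Myh11. From round to elongating WT cells its log2 difference was 0.02 (SE 0.23, adjusted p = 0.93), and under scaling by total reads it fell by 1.42 (adjusted p = 2.9e-05). In KO-labelled cells it rose 5.30-fold (2.41, SE 0.23, adjusted p = 1.2e-07), or by 0.50 (adjusted p = 0.049) under scaling by total reads. Per length, the RPKM of Tagln was 1.97 ± 0.156 in WT and 1.07 ± 0.00195 in KO-labelled round cells, and 0.723 ± 0.0106 in WT and 1.57 ± 0.526 in KO-labelled elongating cells (SD, n = 2). On that scale round WT and elongating KO-labelled libraries overlapped.

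**Figure D2:**
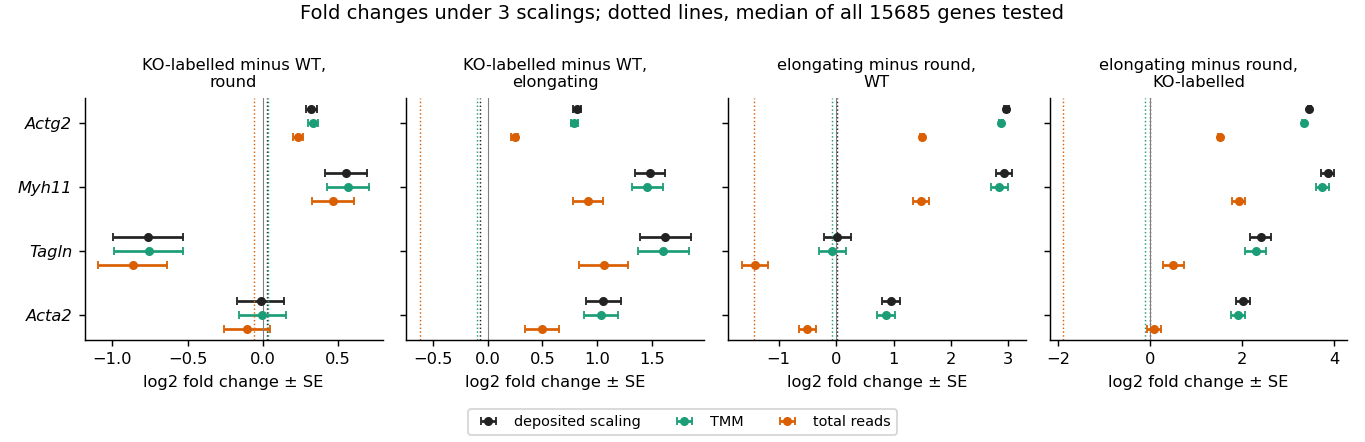
Log2 differences (points) with their SE (bars) for Actg2, Myh11, Tagln and Acta2 in 4 contrasts, with the deposited values, TMM and total-read scaling; the dotted lines are the median of the 15685 genes tested under each scaling. In KO-labelled elongating cells all 4 genes lie above their scaling's median, which is -0.62 for total reads, and in WT cells Tagln lies close to 0 with the deposited values and at -1.42 with total reads.

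Ratios within a library need no scaling between libraries. Per length, Actg2 exceeded Acta2 by 50.3 ± 0.328 times in WT and 63.9 ± 9.73 times in KO-labelled round cells, and by 202 ± 20.2 times in WT and 170 ± 13.7 times in KO-labelled elongating cells (SD, n = 2). The ratio was thus higher in every elongating library than in any round one, while the elongating genotypes were closer to each other. The ratio of Actg2 to Tagln was, in the same order of groups, 73.1 ± 6.74, 157 ± 6.43, 560 ± 17.9 and 324 ± 105. That of Actg2 to Myh11 had means of 252, 212, 252 and 158. Its lowest mean was in the elongating KO-labelled libraries, where Myh11 had the larger log2 increase. With 2 libraries a group, an exact permutation test of such a ratio cannot go below p = 0.333, so none is given.

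Across the 8 libraries, the genes whose log2 values followed Actg2 most closely were Mkrn2, Aldoart2, Trabd, BC049715 and Phkg2, with Pearson r of 0.9998 to 0.9999. Phkg2, the catalytic phosphorylase kinase subunit of liver and testis, had mean normalised counts of 13974, 17783, 101704 and 177543 in the round WT, round KO-labelled, elongating WT and elongating KO-labelled groups. For Myh11 the closest were Tpm2 (r = 0.9992), which encodes the beta-tropomyosin of muscle thin filaments, then Ap3m2, Dph3, Aim1 and Tspy-ps. For Tagln they were Irf2 (r = 0.995), Sohlh2, Epc1, Tmem184c and Brd3. Between the members, r was 0.989 for Actg2 and Myh11, 0.791 for Tagln and Myh11 and 0.758 for Tagln and Actg2, and 1379 genes followed Actg2 more closely than Myh11 did. These correlations describe 4 groups of 2 libraries that share size factors.

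The wider contractile list held 24 genes, all present in the table and 23 tested (Pgm5 was not). Actg2 was far above the rest per length: the next levels in elongating WT cells were those of the myosin light chain genes Myl9, at an RPKM of 11.0, and Myl6, at 5.50. Acta2, the actin that marks peritubular myoid cells, had an RPKM of 2.85 (WT) and 2.67 (KO-labelled) in round cells and of 2.01 (WT) and 2.84 (KO-labelled) in elongating cells. Cnn1, the calponin of differentiated smooth muscle, had normalised counts of 10.2 and 17.6 (WT) and 14.6 and 19.2 (KO-labelled) in round libraries, and of 6.45 and 7.21 (WT) and 1.94 and 7.54 (KO-labelled) in elongating libraries. At these low counts its WT and KO-labelled elongating groups overlapped. Those groups did not overlap for 74.7% of all genes tested, Myh11 and Tagln among them.

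**Figure D3:**
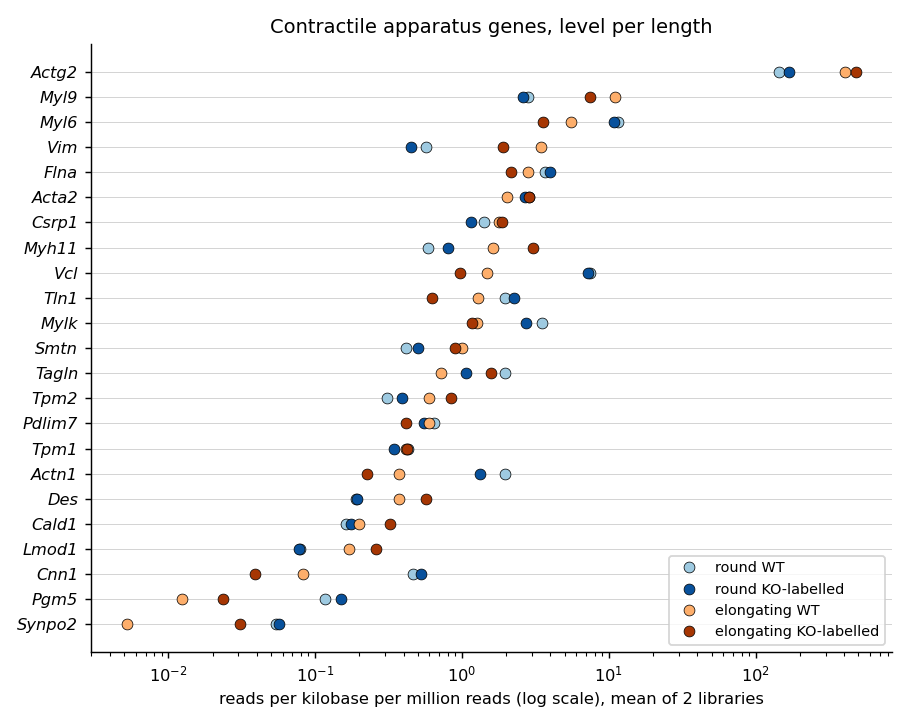
Level of 23 of the 24 contractile genes in each group, as RPKM on a log axis (mean of 2 libraries). Actg2 stands at 143 to 481, above every other gene drawn in every group, and Myh11 and Tagln lie between 0.582 and 3.04.

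In KO-labelled elongating cells 12 of the 23 genes rose and 2 fell, where 27.3% of all genes tested rose and 27.7% fell. The median log2 difference of the list was 0.45 and that of all genes tested -0.07. Besides the members, those with large increases were Cald1, which encodes the actin-binding protein caldesmon (1.23, adjusted p = 0.0034), Des, encoding the muscle intermediate filament desmin (1.17, adjusted p = 0.0084), Lmod1, an actin filament nucleator of smooth muscle (1.13, adjusted p = 0.018), and Acta2 (1.06, SE 0.16, adjusted p = 4e-05, limma). Synpo2, an actin-binding Z-disc protein gene, had 3 reads in WT and 19 in KO-labelled elongating libraries, a ratio of 8.90 with an exact 95% interval of 2.62 to 46.9 for counting error only. Tln1, which encodes the cell-matrix adhesion protein talin, fell (-0.50, adjusted p = 0.0059). Myl9 did not pass the test (0.01). Total-read scaling gave 5 rises and 9 falls, with a median of -0.11 against -0.62 over all genes, of which 8.85% rose and 62.7% fell. Actg2, Myh11, Tagln, Acta2 and Synpo2 were the 5 that rose there, while Cald1, Des and Lmod1 kept a positive difference without a call.

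In KO-labelled round cells 2 of the 23 rose, Actg2 and Myh11, and 2 fell, Tagln and Mylk, which encodes the myosin light chain kinase (-0.29, adjusted p = 0.015). The median of the list was 0.01 and that of all genes 0.03. Both falls lost their call when any 1 of the 4 round libraries was left out. The count of rises was 1 without round KO-labelled replicate 1 and 4 without either elongating KO-labelled library. From round to elongating WT cells 16 rose and 4 fell, where 81.9% of all genes tested were called, 41.7% upward and 40.2% downward. The median of the list was 1.33 and that of all genes 0.01. Scaled by total reads, 8 rose and 11 fell, with a median of -0.11 against -1.43 for all genes, of which 19.5% rose and 68.8% fell, and Acta2 turned from 0.95 to -0.50.

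**Figure D4:**
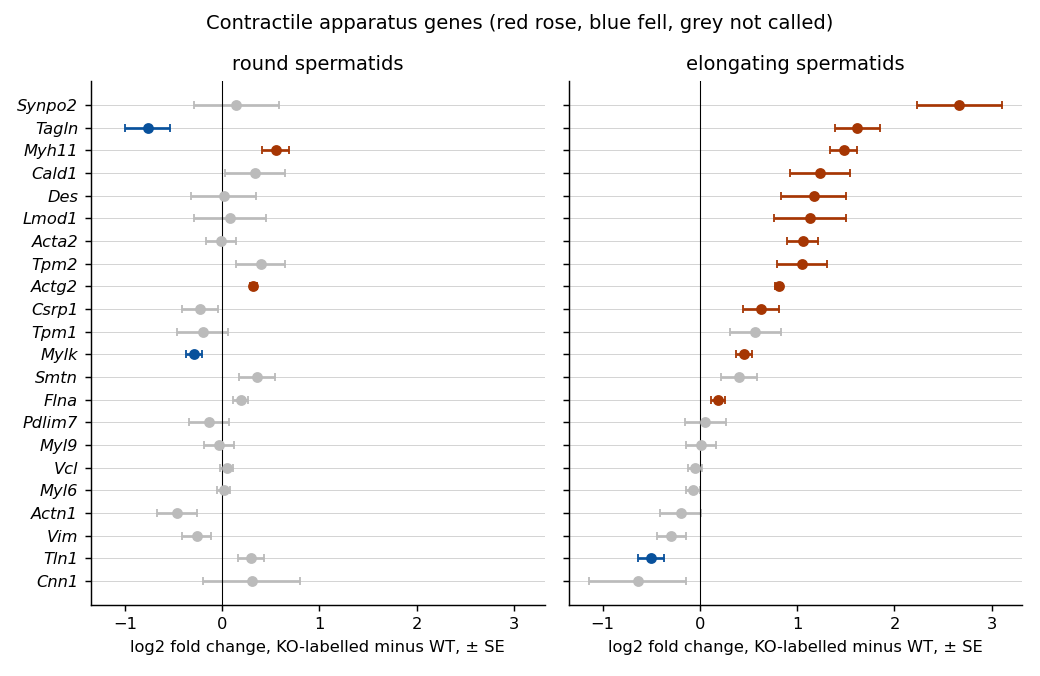
Log2 difference of KO-labelled against WT cells (points) with its SE (bars) for 22 of the 23 contractile genes tested, in round and elongating spermatids, with the deposited values; red rose, blue fell and grey was not called. In round cells 4 of the genes drawn are called, and in elongating cells 12 of them rose and 1 fell.

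Of 20 regulators of smooth muscle genes and contraction, 18 were in the table (Myocd, the myocardin gene, and Ednrb were not analysed here). In KO-labelled round cells, where 32.0% of all genes tested were called, 5 rose and none fell, among them Gata6, a transcription factor of smooth muscle and other lineages (1.35, adjusted p = 4.2e-05), and Ppp1r12b, a myosin phosphatase subunit (1.26, adjusted p = 3.6e-07). In KO-labelled elongating cells, where 55.0% of all genes were called, 5 rose and 3 fell, the falls including Mkl1, a coactivator of serum response factor (-0.58, adjusted p = 5.7e-06), and Rock1, a kinase that acts on myosin phosphatase (-0.55, adjusted p = 3e-04). With total-read scaling none rose and 11 fell in elongating cells, where 62.7% of all genes fell. These shares of called regulators were near or below those of all genes. Srf, encoding serum response factor, had log2 differences of -0.15 in round (adjusted p = 0.096) and 0.16 in elongating cells (adjusted p = 0.055, limma).

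Among the families of the members, 11 of 14 actins and actin-like genes were in the table, and in KO-labelled elongating cells 7 rose and 4 fell, or 4 and 6 under scaling by total reads, against 55.0% of all genes called with the deposited values. Actrt1, an actin-like gene of the sperm head skeleton, rose by 0.74 in round and 1.36 in elongating cells, while the cytoplasmic actin gene Actg1 fell by 0.62 in elongating cells. Actb was 0.22 higher in elongating cells with the deposited values and fell under scaling by total reads (-0.34). Of the calponin and transgelin family, 5 of 6 genes were in the table. Tagln2, the transgelin of nonmuscle cells, rose in KO-labelled round cells by 1.98 (adjusted p = 3.6e-06), where Tagln was lower. Of 13 muscle and nonmuscle myosin heavy chains 9 were in the table, and in KO-labelled elongating cells 3 rose (Myh11, Myh6 and Myh14) and 2 fell (Myh9 and Myh10), or 3 and 3 under scaling by total reads. That count is near the share of all genes called in this contrast, 55.0%.

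Markers of other cells moved with these results. In a bulk sample, fewer cells of a type and less RNA per cell cannot be told apart. The 7 listed markers of pericytes and vascular smooth muscle summed to 150 to 159 normalised counts in WT (Kcnj8 was at 0 reads) and 183 to 187 in KO-labelled round libraries. In elongating libraries they summed to 287 to 293 (WT) and 1024 to 1043 (KO-labelled). In elongating cells 6 of the 7 rose and none fell, with a median of 1.96, where 27.3% of all genes tested rose and 27.7% fell. Under scaling by total reads 5 rose, with a median of 1.40, where 8.85% of all genes rose. In round cells 4 rose, where 19.4% of all genes tested rose, and fewer did when any 1 of the 4 round libraries was left out. From round to elongating cells 6 of the 7 rose, where 41.7% (WT) and 42.6% (KO-labelled) of all genes tested rose. Mcam fell between the stages (log2 -1.27 in WT and -0.83 in KO-labelled cells), so the sums of the stages weight the genes differently. In elongating libraries Pdgfrb, the platelet-derived growth factor receptor of mural cells, went from 61.9 and 72.1 (WT) to 256.0 and 267.7 (KO-labelled). Its log2 difference there was 1.95 (adjusted p = 1.9e-06, limma). Notch3, a receptor of vessel muscle, rose by 1.96 in KO-labelled elongating cells (adjusted p = 8.4e-06, limma). The per-length ratio of Myh11 to Pdgfrb was 3.51 ± 0.303 in WT and 2.88 ± 0.104 in KO-labelled round cells, and 4.05 ± 0.856 in WT and 2.85 ± 0.0389 in KO-labelled elongating cells (SD, n = 2). Pearson's r between the log2 values of Myh11 and Pdgfrb over the 8 libraries was 0.991, and 413 genes followed Myh11 more closely than Pdgfrb did. Myh11 also had r = 0.976 with the spermatid gene Prm2, and Actg2 had r = 0.969 with Pdgfrb. These correlations therefore do not separate cell sources. The part of such cells in the Myh11 and Tagln differences was not tested.

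Other lists moved in both directions. The 9 peritubular myoid markers include all 3 members; the lower sum of the other 6 was 564 normalised counts among WT and 477 among KO-labelled round libraries, and 1009 among WT and 1422 among KO-labelled elongating libraries. The 9 macrophage and leukocyte markers summed to 9105 to 9167 (WT) and 3887 to 3931 (KO-labelled) in elongating libraries, and all 9 fell. Of the 11 Sertoli cell markers in the table, 6 fell in round and 8 in elongating KO-labelled cells and none rose. Of all genes tested, 12.6% fell in round cells, and 27.3% rose and 27.7% fell in elongating cells. In elongating libraries fibroblast markers summed to 3513 to 3598 (WT) and 3327 to 3342 (KO-labelled) normalised counts. As a share of reads they were 0.0116% to 0.0118% (WT) and 0.00739% to 0.00750% (KO-labelled). Endothelial markers summed to 1481 to 1507 (WT) and 2405 to 2448 (KO-labelled), or 0.00491% to 0.00495% and 0.00541% to 0.00542% of reads. Of the 9 endothelial genes, 2 rose and 3 fell, near the shares of all genes. The 4 Leydig cell markers in the table summed to 60.6 to 79.9 (WT) and 130.1 to 153 (KO-labelled), with 1 called, upward. The 2 epididymis markers summed to 88.0 to 101 (WT) and 189 to 198 (KO-labelled), and 1 rose while 1 fell. For Actg2, the germ cell marker Prm2, a protamine gene of late spermatids, followed its log2 values across libraries with r = 0.997. There were 506 genes that followed Actg2 more closely than Prm2 did, and Acta2 had r = 0.947 with Actg2. The per-length ratio of Actg2 to Prm2 was not constant: it was 0.0365 in WT and 0.0425 in KO-labelled round cells, and 0.00927 in WT and 0.00880 in KO-labelled elongating cells.

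**Figure D5:**
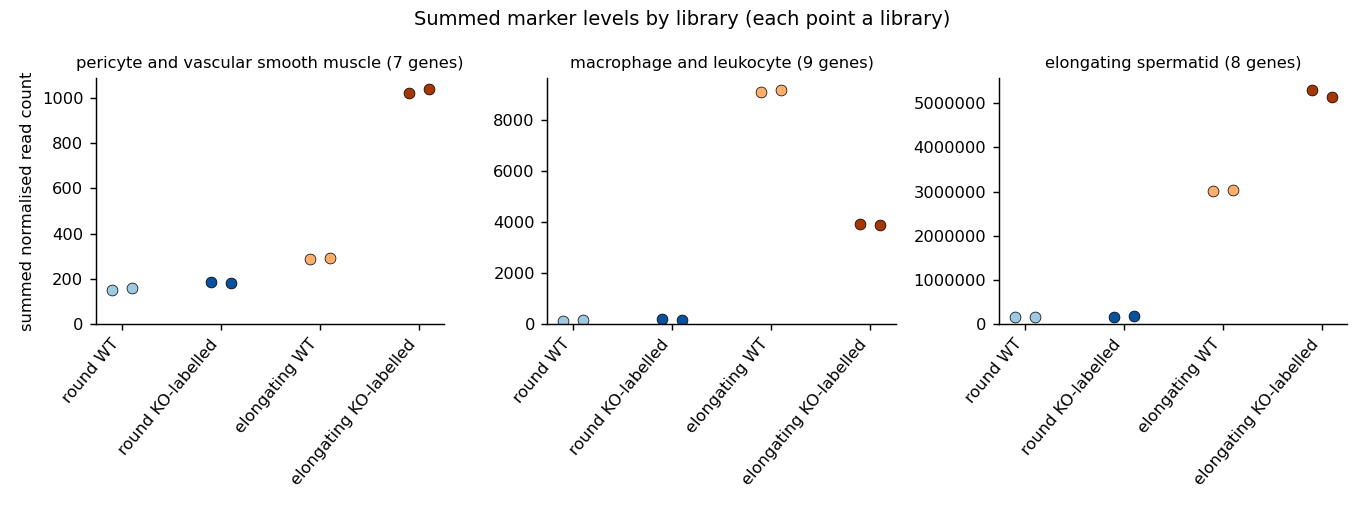
Summed normalised counts per library for 7 pericyte and vascular smooth muscle markers, 9 macrophage and leukocyte markers and 8 elongating-spermatid markers. The pericyte and vascular smooth muscle sum is highest in the elongating KO-labelled libraries, at 1024 to 1043, where the macrophage sum is lower than in elongating WT libraries.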

How the data were processed

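Poly A RNA of 8 spermatid libraries (4 groups of 2) was analysed from the table the authors deposited, whose values are a signal: read counts divided by a size factor. Per the submitters' processing notes the genome was mm10 (GRCm38) and the tools were DESeq 1.16.0, HTSeq 0.6.0, TopHat2 2.0.10 and CASAVA 1.8.2. The sources used here do not give the annotation or strand setting. Whole reads were recovered for 100% of values (tolerance 1e-06), and the lowest gene had 15 reads in all, so rarer genes are not analysed here. Replicates differed beyond sampling noise (chi-square 1.37 to 2.31 per gene).

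The test was limma 3.58.1 (trend) in R 4.3.3 on log2(value + 1), for genes reaching 10 normalised counts in 2 or more libraries, with 4 group means, 4 residual degrees of freedom and Benjamini-Hochberg adjustment, two-sided, called at 0.05. Alternatives were scaling of the recovered reads by TMM or total, edgeR 4.0.16 and DESeq2 1.42.0 on those reads, a pseudocount of 5, no filter, fits of 4 libraries, a replicate block and leaving out each library. The script was tested on simulated data. Levels per length used merged exon bases of GENCODE M21, matched by symbol for 15698 genes. Alignments used Biopython 1.88.

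The genes and lists were chosen with earlier results of these data known. Named were the members, Carm1, overlapping genes, the 5 most correlated genes per member and up to 4 called genes with the largest change per list and contrast; any other gene in the text, such as Srf, Acta2, Cnn1, Des, Tln1, Actb and Prm2, was named after its values were seen. A list gene is counted but not reported here by itself. Replicate numbers are shared between groups, but the labels do not say that they pair the samples.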

Additional observations from a re-analysis of the deposited data

Results flagged for a closer look

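The knockout effect differed between the stages for all 3 genes, by an interaction test of the difference itself with limma, adjusted over all genes tested. That test called 36.9% of all genes tested, 19.3% in the direction of these 3. Larger differences were found in 43 genes for Tagln, 847 for Myh11 and 2946 for Actg2. The effect in elongating minus that in round spermatids was 2.38 for Tagln, 0.93 for Myh11 and 0.49 for Actg2 on the log2 scale. Under scaling by total reads the same differences were 1.92 for Tagln, 0.45 for Myh11 and 0.02 for Actg2, and only that of Tagln kept its call. Tagln was the one whose effect had opposite signs in the 2 stages, and 62.4% of its exon bases overlap an antisense gene. Myh11 and Tagln were higher in KO-labelled elongating cells, as were the summed pericyte and vascular smooth muscle markers (287 to 293 normalised counts in WT, 1024 to 1043 in KO-labelled libraries). In round cells that sum was also higher in KO-labelled libraries (150 to 159 in WT, 183 to 187 in KO-labelled), while Tagln was lower. The round and elongating sums weight the genes differently. Of the 7 markers, Mcam fell from round to elongating cells (log2 -1.27 in WT and -0.83 in KO-labelled cells) while the other 6 rose. The part of pericytes and vascular smooth muscle was not tested.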

How the results depend on the processing

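Over 16 alternatives the 15 results for the members (5 contrasts each) were recomputed 237 times; 225 kept direction and side of the threshold, 8 lost the call and 4 turned sign. Under scaling by total reads the difference between the stages lost its call for Actg2 (0.0165, adjusted p = 0.79) and Myh11 (0.45, adjusted p = 0.072). Tagln between WT stages, never called with the deposited values (0.02), turned to -1.42 under scaling by total reads (adjusted p = 2.9e-05), -0.064 under TMM and -0.10 in edgeR, and ranged from -0.052 to 0.10 over single libraries left out, turning sign without round WT replicate 2. Over the same leave-outs the round contrast ranged from 0.32 to 0.78 for Myh11 and from -0.84 to -0.69 for Tagln, with the lost calls given above. The causes were not tested. With a replicate block the round contrast called 4932 genes and the elongating one 8583 (5018 and 8627 without), and no call of a member changed. The deviations of same-numbered libraries correlated at -0.015 to 0.031. No count of called genes over the whole table moved by over 1.5 times. Counts within the lists did: beside the values given above, the contractile list in round cells had 4 rises and 4 falls in edgeR and 4 rises in the fit of 4 libraries, its falls in elongating cells were 1 in DESeq2 and without either elongating WT library, and the rises of the pericyte list in round cells were 1 in DESeq2. The difference between stages has no fit of 4 libraries. With 30 to 90 reads per library, depth limits Tagln most.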
